A study of Mus musculus with 46 samples.

Results

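Microglia, the resident macrophages of the brain, were examined for 31 genes of sterol and fatty acid synthesis. The members were a list of gene symbols looked up in the deposited count table, and all 31 were found among its 20999 genes. By role, 7 encode enzymes of the mevalonate pathway, 10 encode enzymes from squalene to cholesterol, 4 encode regulators of the pathway, 1 encodes a sterol carrier, 3 encode enzymes that build saturated fatty acids and 6 encode desaturases and elongases. All 31 passed the filter on low counts, which kept 12230 genes. Scd1, Idi1 and Fads2 held only 5, 11 and 15 counts in the adult group and passed it through other groups, so their difference from adult cells is in part fixed by the filter. Scd1 also held only 9 and 15 counts in the PND8 Ki67-negative and Ki67-positive groups. Its difference between repopulation and PND8 is thus in part fixed by the filter as well.

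The mevalonate pathway turns acetyl-CoA into isoprenoid units, which are joined into squalene, closed into lanosterol and trimmed to cholesterol. The transcription factors SREBP2 (gene Srebf2) and SREBP1 (gene Srebf1) are known to switch these genes on: SCAP escorts them to the Golgi for activation when membrane sterol is low, and INSIG1 holds them back in the endoplasmic reticulum when it is high. In the brain cholesterol is made locally, since little crosses from the blood, and microglia also take up and export sterol from other cells and from myelin.

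RNA came from male C57BL/6 mice in 5 groups of 2 libraries. The adult group was wild-type, untreated and 90 days old. The other 4 groups carried the Ki67-rfp reporter of cycling cells and were sorted as Ki67-negative or Ki67-positive, either untreated at postnatal day 8 (PND8) or during repopulation at 75 days of age, after 17 days on a diet with PLX5622, an inhibitor of the CSF1 receptor that depletes microglia, begun at day 55, and 3 days of recovery. Promoter H3K27ac, a histone mark of active promoters, came from wild-type male mice in 6 groups of 2 libraries: adult at 60 and 65 days, untreated PND8 mice split into both Ki67 fractions, both fractions after 4 weeks of a diet with cuprizone, a copper chelator that causes loss of myelin, at 90 days, and Ki67-positive in repopulation at 90 days, with PLX5622 begun at day 70. For H3K27ac, Ki67 was stained with an antibody in fixed cells. Adult RNA libraries differ from the other RNA groups in genotype and in the numeric code of their file headers, and these cannot be told apart from age and treatment.

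Depth was between 6865903 and 10287876 counts per RNA library. Mki67, the gene of Ki67 itself, was at 13.4 and 11 CPM (counts scaled to library size) in adult libraries, 242 and 282 in PND8 Ki67-negative, 919 and 1107 in PND8 Ki67-positive, 336 and 463 in repopulation Ki67-negative and 930 and 1086 in repopulation Ki67-positive libraries. The Ki67-negative groups therefore held far more Mki67 RNA than adult microglia. Summed over 8 microglial markers, levels lay between 6193 and 8092 CPM in all 10 libraries. The summed oligodendrocyte list was at 213 CPM in both adult libraries, at 160 to 189 at PND8 and at 230 to 248 in repopulation, with the defining genes Sox10 and Mog at most at 2.97 and 1.19 CPM. The highest Sox10 value was in PND8 Ki67-positive replicate 1. The summed astrocyte list was at 240 and 248 CPM in adult, 61.4 to 430 in PND8 and 410 to 567 in repopulation libraries, led by Slc1a3, which made up 38.6 of 61.4 CPM in the lowest library. Of its other genes Slc1a2 reached 12.6 CPM (PND8 Ki67-negative replicate 1), Aldh1l1 9.78 (repopulation Ki67-negative replicate 1), Gja1 8.36 (PND8 Ki67-positive replicate 1) and Gfap 4.08. The summed border macrophage list was between 598 and 857 CPM at PND8, against 63.2 to 77.1 in adult and 26.2 to 42.9 in repopulation libraries, led by Mrc1. The neutrophil and monocyte list summed to 227 and 68.6 CPM in the adult libraries and to between 3.48 and 9.26 in the other 8. All 6 of its measured genes were called lower than adult in 3 comparisons and 5 in repopulation Ki67-negative cells. The erythroid list summed to 0.462 and 6.60 CPM in adult, 21.3 to 69.5 in PND8 and 0.416 to 1.37 in repopulation libraries, and its 4 genes were called higher than adult in both PND8 groups and in neither repopulation group. The part of these cells in the results was not tested. In bulk libraries fewer cells of a type and less RNA per cell cannot be told apart.

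Promoter sequences are given for some members, chosen as set out below. RefSeq promoter sequences of GRCm38.p6, from 250 bases before to 50 after the start, were at hand for 24 of the 31 members. Scd1, Sqle, Stard4, Fdps, Scd2, Fads1 and Fdft1 had no entry. The stretches printed here are the 200 bases before the start for the 5 members with the largest rise in repopulating Ki67-positive cells that had an entry (Fads2, Idi1, Cyp51, Insig1 and Srebf2), for Hmgcs1, the only member with a match to the sterol regulatory element searched, and for Fasn of the fatty acid arm. Capitals mark matches on either strand to 3 motifs: the sterol regulatory element TCACNCCAC, the E-box CACGTG and the CCAAT box, which reads ATTGG on the other strand.
Hmgcs1: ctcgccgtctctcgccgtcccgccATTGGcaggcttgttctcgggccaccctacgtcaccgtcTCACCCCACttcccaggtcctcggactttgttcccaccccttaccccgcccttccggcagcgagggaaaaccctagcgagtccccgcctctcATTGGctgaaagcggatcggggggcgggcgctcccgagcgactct
Insig1: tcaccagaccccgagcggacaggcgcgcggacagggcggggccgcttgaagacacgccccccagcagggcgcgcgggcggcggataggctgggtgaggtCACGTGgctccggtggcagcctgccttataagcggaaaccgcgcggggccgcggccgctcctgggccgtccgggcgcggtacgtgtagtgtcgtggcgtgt
Srebf2: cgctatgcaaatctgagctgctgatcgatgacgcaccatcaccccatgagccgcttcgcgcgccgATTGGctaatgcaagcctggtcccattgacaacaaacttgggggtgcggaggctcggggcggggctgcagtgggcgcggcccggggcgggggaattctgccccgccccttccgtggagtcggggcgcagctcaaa
Idi1: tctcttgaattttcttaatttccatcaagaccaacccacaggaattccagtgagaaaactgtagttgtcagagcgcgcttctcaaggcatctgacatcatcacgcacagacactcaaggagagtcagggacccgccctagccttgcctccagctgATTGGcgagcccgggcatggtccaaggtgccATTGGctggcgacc
Cyp51: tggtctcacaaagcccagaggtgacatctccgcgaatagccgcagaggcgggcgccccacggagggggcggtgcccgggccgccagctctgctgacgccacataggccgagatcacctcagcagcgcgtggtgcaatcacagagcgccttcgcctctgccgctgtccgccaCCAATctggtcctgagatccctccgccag
Fads2: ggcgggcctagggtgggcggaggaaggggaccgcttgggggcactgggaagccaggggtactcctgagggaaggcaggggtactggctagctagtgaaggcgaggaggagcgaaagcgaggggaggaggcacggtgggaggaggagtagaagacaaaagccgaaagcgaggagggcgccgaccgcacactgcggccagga
Fasn: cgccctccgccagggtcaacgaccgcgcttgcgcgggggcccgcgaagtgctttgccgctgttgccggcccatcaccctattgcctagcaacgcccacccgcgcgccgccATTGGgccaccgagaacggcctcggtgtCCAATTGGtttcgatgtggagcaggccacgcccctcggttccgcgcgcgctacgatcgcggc

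On mm10 these stretches lie at chr13:119690151-119690350, strand + for Hmgcs1, chr5:28071212-28071411, strand + for Insig1, chr15:82147069-82147268, strand + for Srebf2, chr13:8885406-8885605, strand + for Idi1, chr5:4104698-4104897, strand - for Cyp51, chr19:10101504-10101703, strand - for Fads2 and chr11:120824548-120824747, strand - for Fasn. The Hmgcs1 stretch held the sterol regulatory element 137 bases before the start, between CCAAT boxes at 176 and 45 bases. Insig1 held an E-box at 101 bases, Idi1 held CCAAT boxes at 45 and 14 bases, and Srebf2 and Cyp51 held 1 each, at 135 and 29 bases. Fasn held 3 CCAAT boxes, of which those at 62 and 59 bases overlap. The Fads2 stretch held none of these 3 motifs. Over the whole windows, the sterol regulatory element was in 1 of 24 member promoters (4.2%, against 1.03% of the 9744 promoters of genes kept), the E-box in 5 (20.8% against 10.25%), the CCAAT box in 16 (66.7% against 39.3%) and the GC box GGGCGG in 19 (79.2% against 64.2%). These shares describe letters in a short window and were not tested.

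Most members were higher in PND8 and repopulating microglia than in adult microglia, and none was called lower. Calls are genes with an adjusted p under 0.05 in edgeR's quasi-likelihood test, adjusted over all 12230 genes by the method of Benjamini and Hochberg. In PND8 Ki67-positive cells 21 of 31 members were called higher and 0 lower, against 25.1% and 24.3% of all genes. In PND8 Ki67-negative cells 23 were called higher and 0 lower, against 25.4% and 21.4%. In repopulation 24 were called higher in Ki67-positive cells, against 23.9% of all genes, and 23 in Ki67-negative cells, against 21.5%. None was called lower there, against 21% and 17.6% of all genes. The median log2 difference of the members from adult was 0.94, 0.84, 0.92 and 1.03 in these 4 groups in the same order, while the median over all genes was between -0.010 and 0.027. All 4 comparisons share the same 2 adult libraries. Nsdhl and Scap, with Elovl6, were the members not called in any of them.

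**Figure D1:**
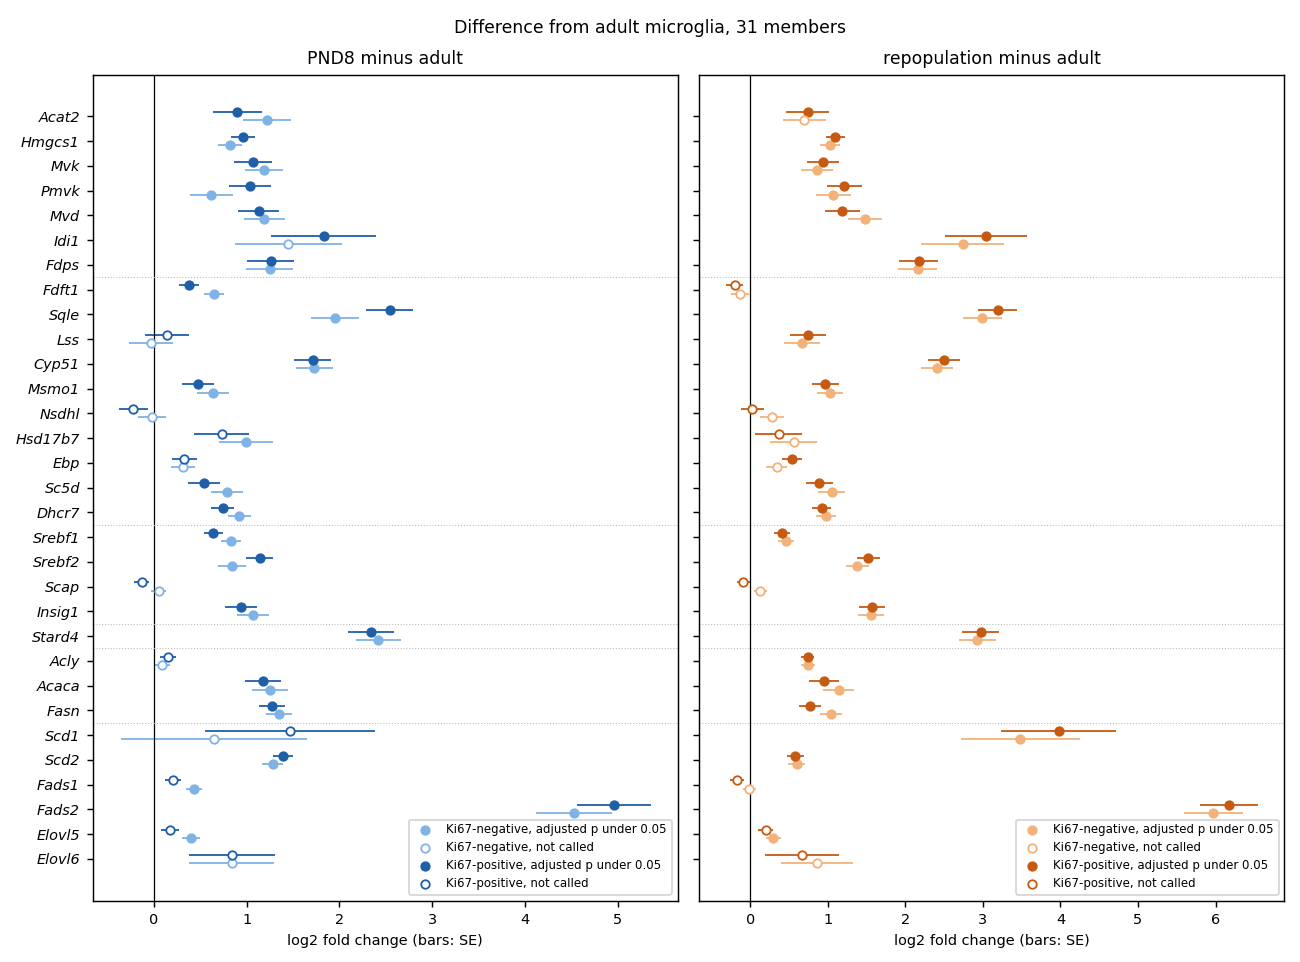
Log2 fold change from adult microglia (x axis, bars are the SE of the edgeR fit) for each of the 31 members (y axis, grouped by role between dotted lines) at PND8 and in repopulation. Filled points had an adjusted p under 0.05; all of them lie right of 0, and Fads2 is farthest right at 4.96 and 6.17 in Ki67-positive cells.

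Among the regulators, Srebf2 and its feedback inhibitor Insig1 had their highest mean levels in repopulation, whereas the Srebf1 mean was highest at PND8. Between repopulation and PND8 in Ki67-positive cells, the differences of Srebf2 (0.38) and Srebf1 (-0.23) were not called, and that of Insig1 (0.63) was. In Ki67-negative cells those of Srebf2 (0.53), Srebf1 (-0.37) and Insig1 (0.49) were called. Srebf2 was at 90.3 and 89.2 CPM in adult libraries, 180 and 142 in PND8 Ki67-negative, 192 and 203 in PND8 Ki67-positive, 203 and 264 in repopulation Ki67-negative and 225 and 291 in repopulation Ki67-positive libraries. Every adult value was below all others. Its log2 rise was 1.14 ± 0.149 (SE) at PND8 and 1.52 ± 0.149 in repopulation in Ki67-positive cells, with edgeR adjusted p of 3.4e-05 and 3.0e-06. Insig1 was at 16.6 and 17.2 CPM in adult libraries, at 31.5 to 39.6 in the 4 PND8 libraries and at 43.5 to 57.4 in the 4 repopulation libraries. The 3 ranges do not overlap. Srebf1 was at 116 and 113 CPM in adult libraries, 199 and 208 in PND8 Ki67-negative, 180 and 176 in PND8 Ki67-positive, 147 and 169 in repopulation Ki67-negative and 137 and 168 in repopulation Ki67-positive libraries. It was called higher than adult in all 4 groups, by 0.41 to 0.83 on the log2 scale. Its span overlaps that of Rai1 on the other strand over 112 bp, and whether the counting used strand is not given in the sources used here. Scap, the escort of both factors, lay between 134 and 171 CPM in all 10 libraries, and its differences from adult, -0.13 to 0.13 on the log2 scale, were not called.

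The mevalonate enzymes moved together: all 7 were called higher than adult in Ki67-positive cells of both settings, and 6 of 7 in Ki67-negative cells of each, where Idi1 at PND8 and Acat2 in repopulation were not. Hmgcs1, which makes HMG-CoA at the entry of the pathway, was at 47.2 and 40.5 CPM in adult libraries, 80.1 and 74.6 in PND8 Ki67-negative, 79.0 and 91.3 in PND8 Ki67-positive, 81.4 and 98.4 in repopulation Ki67-negative and 89.7 and 99.0 in repopulation Ki67-positive libraries. Its log2 rise was between 0.82 and 1.10, and no adult value reached the others. The largest rise of the 7 was that of Idi1, the isomerase that makes dimethylallyl diphosphate, at very low levels. This rise is in part fixed by the filter on low counts. Idi1 was at 0.578 and 0.733 CPM in adult libraries, 2.10 and 1.56 in PND8 Ki67-negative, 2.64 and 2.08 in PND8 Ki67-positive, 3.43 and 5.63 in repopulation Ki67-negative and 4.05 and 7.05 in repopulation Ki67-positive libraries. The adult group held 11 Idi1 counts in all and the repopulation Ki67-positive group 84, a ratio of 8.24 after scaling (exact 95% interval 4.38 to 17.1, counting error only). Fdps, which joins the units to farnesyl diphosphate, rose by 1.25 and 1.26 on the log2 scale in Ki67-negative and Ki67-positive PND8 cells and by 2.16 and 2.17 in repopulating cells, an order kept for the rises from adult of the members that follow. Acat2, Mvk, Pmvk and Mvd rose by 0.62 to 1.48 where called.

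From squalene to cholesterol the steps were uneven. Sqle, the squalene epoxidase that commits squalene to sterol, was at 6.94 and 6.84 CPM in adult libraries, 27.6 and 25.9 in PND8 Ki67-negative, 37.4 and 43.0 in PND8 Ki67-positive, 41.2 and 69.4 in repopulation Ki67-negative and 53.5 and 72.8 in repopulation Ki67-positive libraries. Every value outside the adult group was well above both adult values. Its log2 rise from adult, in Ki67-negative and then Ki67-positive cells, was 1.95 ± 0.259 and 2.54 ± 0.253 (SE) for PND8, and 2.99 ± 0.252 and 3.19 ± 0.250 for repopulation. Cyp51, which removes a methyl group from lanosterol, rose by 1.73 and 1.71 at PND8 and by 2.41 and 2.50 in repopulation on the same scale. Msmo1, Sc5d and Dhcr7, enzymes of the later steps, were called higher in all 4 comparisons, by 0.48 to 1.05. Lss, which closes the sterol ring, was called only in repopulation, at 0.67 and 0.75. Hsd17b7 was called only in PND8 Ki67-negative cells (0.99) and Ebp only in repopulation Ki67-positive cells (0.54). Nsdhl, whose product acts beside that of Hsd17b7, had differences of -0.22 to 0.28 that were not called.

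Fdft1, the squalene synthase between the 2 arms, was at 65.2 and 62.2 CPM in adult libraries, 94.1 and 105 in PND8 Ki67-negative, 83.8 and 81.7 in PND8 Ki67-positive, 60.8 and 55.7 in repopulation Ki67-negative and 59.9 and 50.9 in repopulation Ki67-positive libraries. It was called higher at PND8, by 0.65 and 0.38 on the log2 scale, while its repopulation values lay below the adult ones by differences of -0.13 and -0.20 that were not called. The Fdft1 span overlaps that of Ctsb, an abundant lysosomal protease on the other strand, over 773 bp, with the same doubt about strand as for Srebf1.

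Stard4, a carrier that moves cholesterol between membranes, was also far above its adult level. It was at 5.66 and 5.74 CPM in adult libraries, 34.2 and 27.1 in PND8 Ki67-negative, 25.4 and 32.3 in PND8 Ki67-positive, 39.7 and 48.0 in repopulation Ki67-negative and 36.1 and 54.1 in repopulation Ki67-positive libraries. The lowest value outside the adult group was over 4 times the adult level. On the log2 scale PND8 cells were higher by 2.42 ± 0.241 and 2.34 ± 0.243 (SE), and repopulating cells by 2.93 ± 0.239 and 2.97 ± 0.239, Ki67-negative first.

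**Figure D2:**
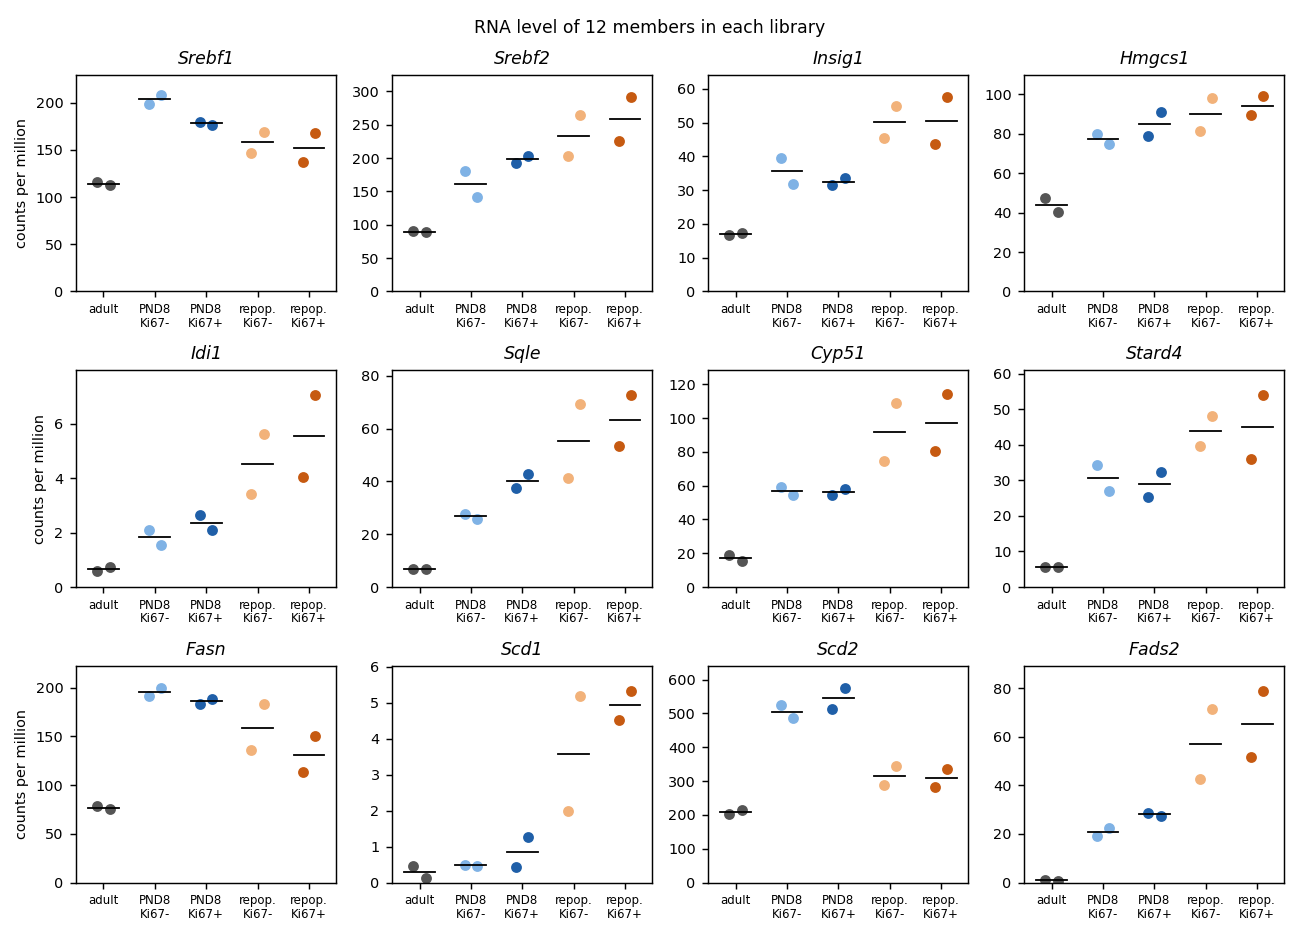
RNA level in CPM (y axis, linear from 0) of 12 members in the 10 RNA libraries; points are libraries, lines are group means and colours are the 5 groups. Group means of Sqle, Cyp51, Stard4, Idi1 and Fads2 step up from adult to PND8 and again to repopulation. Scd2 falls back from 485 to 575 CPM at PND8 to 283 to 344 in repopulation. Single Sqle values overlap, with 43.0 CPM in PND8 Ki67-positive replicate 2 and 41.2 in repopulation Ki67-negative replicate 1. The difference of Stard4 between repopulation and PND8 was not called in Ki67-negative cells.

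In the fatty acid arm, Fasn and Acaca were called higher in all 4 comparisons and Acly only in repopulation. Fasn, the fatty acid synthase, was at 78.6 and 75.4 CPM in adult libraries, 192 and 200 in PND8 Ki67-negative, 183 and 188 in PND8 Ki67-positive, 136 and 183 in repopulation Ki67-negative and 113 and 150 in repopulation Ki67-positive libraries. On the log2 scale it rose by 1.35 and 1.27 in PND8 cells and by 1.04 and 0.77 in repopulating cells. Acaca, which makes malonyl-CoA for it, rose by 0.95 to 1.25. Acly, which supplies cytosolic acetyl-CoA from citrate to both arms, was at 252 to 290 CPM in the adult and PND8 libraries and at 404 to 450 in the 4 repopulation libraries, with log2 rises of 0.75 and 0.74 there.

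The desaturases split. Fads2, the delta-6 desaturase of polyunsaturated fatty acids, had the largest rise of all members, in part fixed by the filter on low counts. It was at 1.04 and 0.733 CPM in adult libraries, 19.2 and 22.5 in PND8 Ki67-negative, 28.6 and 27.5 in PND8 Ki67-positive, 42.8 and 71.4 in repopulation Ki67-negative and 51.7 and 78.8 in repopulation Ki67-positive libraries. No 2 of the 3 settings overlap. The adult group held 15 Fads2 counts and the repopulation Ki67-positive group 995, a ratio of 71.6 (exact 95% interval 43.2 to 128, counting error only). Its neighbour on chromosome 19, Fads1, the delta-5 desaturase, was at 213 and 236 CPM in adult libraries, 317 and 289 in PND8 Ki67-negative, 262 and 258 in PND8 Ki67-positive, 211 and 235 in repopulation Ki67-negative and 198 and 201 in repopulation Ki67-positive libraries. Fads1 was called higher only in PND8 Ki67-negative cells, by 0.43.

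Scd1 and Scd2 both make monounsaturated fatty acids from saturated ones. Scd2 was at 202 and 214 CPM in adult libraries, 525 and 485 in PND8 Ki67-negative, 513 and 575 in PND8 Ki67-positive, 288 and 344 in repopulation Ki67-negative and 283 and 337 in repopulation Ki67-positive libraries. It rose by 1.28 and 1.39 on the log2 scale at PND8 and by 0.60 and 0.58 in repopulation. Scd1 was hardly expressed: it was at 0.462 and 0.122 CPM in adult libraries, 0.495 and 0.458 in PND8 Ki67-negative, 0.44 and 1.27 in PND8 Ki67-positive, 1.98 and 5.18 in repopulation Ki67-negative and 4.51 and 5.32 in repopulation Ki67-positive libraries. The adult group held 5 Scd1 counts and the repopulation Ki67-positive group 76, a ratio of 16.4 (exact 95% interval 6.73 to 52, counting error only). The Scd1 rise from adult is in part fixed by the filter on low counts. Scd1 and Scd2 are close paralogs, and how the authors' counting placed reads shared by both is not given in the sources used here. Of the elongases, Elovl5 was called higher only in the Ki67-negative groups, by 0.40 and 0.30, and Elovl6, at 1.71 to 4.95 CPM, was not called.

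Per transcript length, the order of levels differed from that of the changes. On the deposited TPM scale, which divides by transcript length, Fads1, Acly and Scd2 led the members in adult cells, with means of 98.2, 87.4 and 57.6 over 2 libraries, and Scd2 led at PND8 with 138 and 150 in Ki67-negative and Ki67-positive cells. Scd1, Idi1 and Fads2 were at the bottom in adult cells with 0.0915, 0.345 and 0.462 TPM. In repopulating Ki67-positive cells Fads2 reached 32.2 ± 8.99 TPM (SD, n = 2), close to Sqle at 33.0 ± 6.61 and Cyp51 at 32.0 ± 7.21, and these 3 do not differ beyond their spread. The members summed to 671.4 and 667.3 TPM in adult libraries and to between 974.4 and 1155 in the other 8.

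Ki67-positive and Ki67-negative cells of the same setting were then compared, which asks whether members differed between the sorted fractions. The Ki67-negative libraries themselves held 242 to 463 CPM of Mki67, against 13.4 and 11 in adult libraries. The comparison thus does not set cycling cells against cells without Mki67 RNA. In neither setting was a member called: 0 of 31 at PND8, where 5.9% of all genes were called in either direction, and 0 of 31 in repopulation, where 2.74% were. At an unadjusted p under 0.05 there were 5 of 31 members at PND8 and 1 of 31 in repopulation in the same edgeR fit. Of all 12230 genes, 2410 and 1927 passed that cut, so the member shares were below those of all genes. DESeq2 also called 0 members in each setting. The median member difference was -0.07 and -0.01 on the log2 scale, while Mki67 differed by 1.95 and 1.34. Intervals for single members were wide enough to hold modest differences. For Hmgcs1 the 95% interval was -0.12 to 0.40 at PND8 and -0.19 to 0.34 in repopulation. For Scd2 it was -0.12 to 0.34 and -0.26 to 0.21. Sqle had the smallest adjusted p at PND8, 0.134 in edgeR, with a log2 difference of 0.59 (95% interval 0.13 to 1.05), and its 2 Ki67-positive values were both above the Ki67-negative ones.

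When the header code, a number that libraries may share, was a term of the edgeR fit, 5 members were called at PND8 and 2 in repopulation, against 15.2% and 9.92% of all genes. The member count was near the share of all genes at PND8 and below it in repopulation. At PND8 Sqle (0.59), Fads2 (0.43) and Srebf2 (0.31) were higher in Ki67-positive cells and Fdft1 (-0.27) and Fads1 (-0.22) lower. In repopulation Fasn (-0.28) and Scap (-0.22) were lower in Ki67-positive cells. The Ki67 difference itself was compared between settings by an interaction term: 0 of 31 members and 0% of all genes were called in edgeR, with 0 members and 613 genes at an unadjusted p under 0.05. DESeq2 called 0 members and 3 genes.

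Some members differed between repopulating and PND8 microglia, in both directions. In Ki67-positive cells 10 members were called higher in repopulation and 4 lower, against 16.7% and 14.2% of all genes. In Ki67-negative cells 10 were also called above PND8 and 4 below it, against 18% and 18.6%. The member share called lower was thus near or below that of all genes in both Ki67 groups. The median member difference was 0.18 and 0.26 on the log2 scale. Of the mevalonate enzymes 2 of 7 were called higher in each Ki67 group, and of the enzymes from squalene to cholesterol 3 of 10 were higher and 1 was lower. The sterol genes called higher in both Ki67 groups were Cyp51, by 0.79 and 0.68, Sqle by 0.65 and 1.04, Fdps by 0.91 and 0.91, Idi1 by 1.21 and 1.29 and Insig1 by 0.63 and 0.49 in Ki67-positive and Ki67-negative cells. Fads2 was higher by 1.21 and 1.44, Scd1 by 2.51 and 2.83 and Acly by 0.58 and 0.66. The Scd1 differences are in part fixed by the filter on low counts, since its PND8 groups held only 15 and 9 counts. The 4 members called lower in Ki67-positive cells were Scd2 (-0.81), Fdft1 (-0.58), Fasn (-0.50) and Fads1 (-0.38). In Ki67-negative cells they were Fdft1 (-0.77), Scd2 (-0.68), Fads1 (-0.44) and Srebf1 (-0.37).

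Libraries of these groups were not all alike in header code. PND8 replicate 2 and repopulation replicate 1 share a code, and each other replicate has a code of its own setting. In repopulation, replicate 2 was above replicate 1 for Sqle, Cyp51, Idi1, Fdps and Fads2 in both Ki67 groups. Within the shared code, where each comparison is 1 library against 1 and has no replicate check, the median member difference was 0.063 in Ki67-positive and 0.122 in Ki67-negative cells. There Fads2 differed by 0.90 and 0.92, Idi1 by 0.89 and 1.03, Fdps by 0.42 and 0.63, Sqle by 0.32 and 0.66, Scd2 by -1.02 and -0.75 and Fasn by -0.74 and -0.56.

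With the code as a term, 5 members were called higher and 5 lower in Ki67-positive cells, against 18.9% and 17.1% of all genes, and in Ki67-negative cells 8 were higher and 7 lower, against 21.3% and 22.4%. These member counts are near the shares of all genes. In Ki67-positive cells Idi1, Fdps, Sqle, Msmo1 and Stard4 were no longer called, with Sqle at 0.31 and Stard4 at 0.40, and Srebf1 (-0.36) was. Leaving out 1 library moved the 14 calls in Ki67-positive cells to 7 without PND8 Ki67-positive replicate 1 and to 8 without repopulation Ki67-positive replicate 2, with 3 higher in each. In Ki67-negative cells 14 calls became 9 without PND8 Ki67-negative replicate 2. Without repopulation Ki67-negative replicate 2 they were 10, of which 4 were higher and 6 lower.

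**Figure D3:**
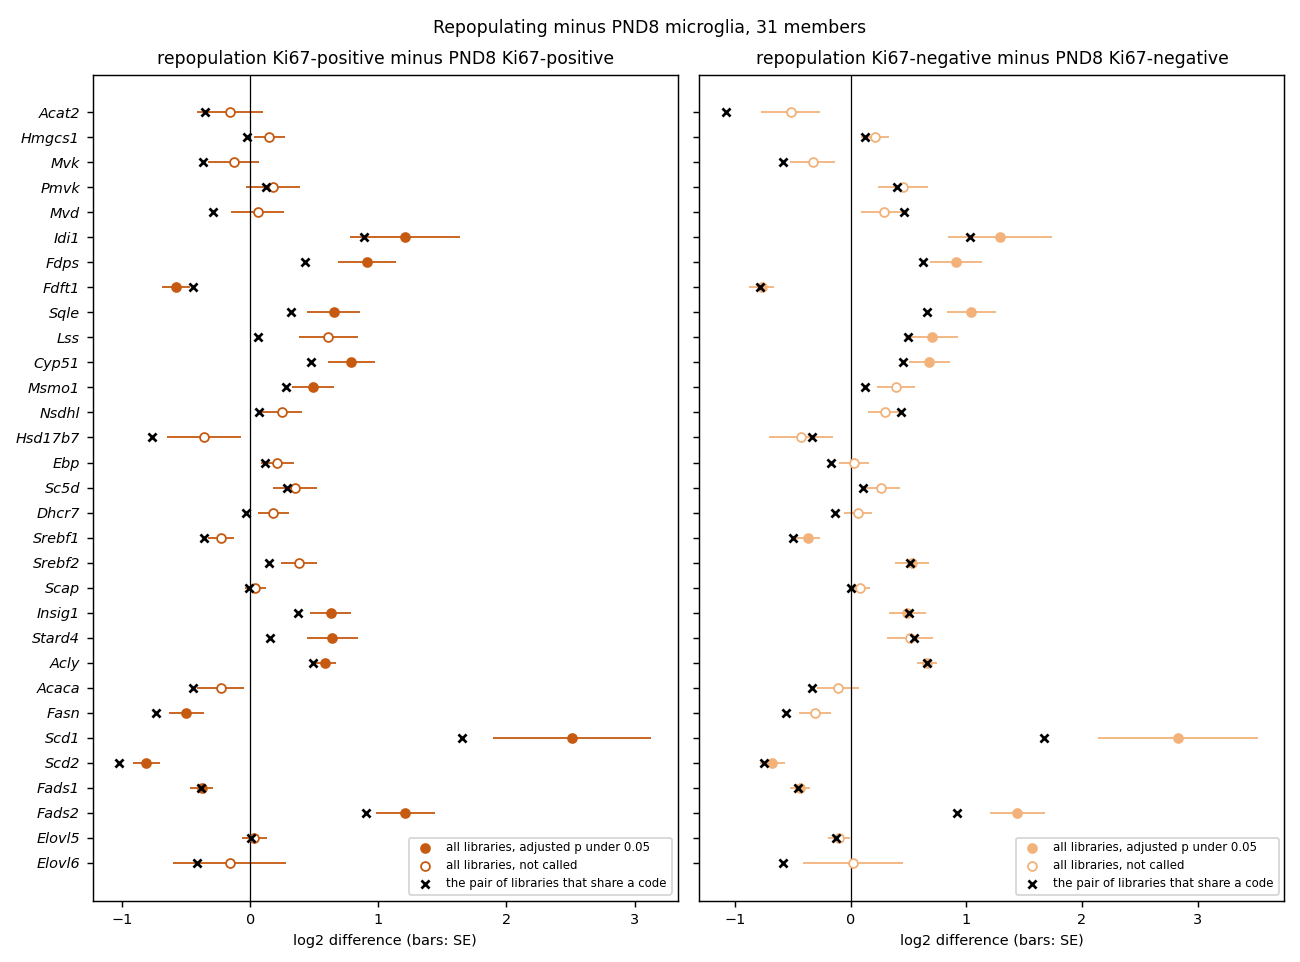
Log2 difference between repopulating and PND8 microglia (x axis, bars are the SE of the edgeR fit) for the 31 members (y axis) in Ki67-positive and Ki67-negative cells; filled points had an adjusted p under 0.05 and crosses are the 1 library of each group with the code common to both. The crosses of most sterol genes called higher sit closer to 0 than the fitted points, with Sqle at 0.32 against 0.65 in Ki67-positive cells, and those of Scd2 do not.

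Other genes of lipid metabolism were taken from lists beside the members. Of 11 further sterol genes measured, 7 were called higher and 2 lower than adult in PND8 Ki67-positive cells, and again 7 and 2 in repopulating Ki67-positive cells. The genes called lower were Ggps1 (-0.64) and Tm7sf2 (-0.62) at PND8 and Ggps1 (-0.71) and Mbtps2 (-0.54) in repopulation. Of 17 genes of sterol export and uptake, 5 were called higher and 4 lower at PND8 and 4 higher and 8 lower in repopulation, in Ki67-positive cells. The PND8 shares are near those of all genes given above, 25.1% higher and 24.3% lower, and in repopulation those were 23.9% and 21%. Apoe, the gene of the main apolipoprotein of brain cholesterol transport, was higher than adult by 1.53 at PND8 and lower in repopulation (-1.44). The other largest changes at PND8 were those of Scarb1 (0.61), Cyp27a1 (-1.08) and Mylip (-0.94). In repopulation they were Ch25h (4.00), which makes 25-hydroxycholesterol, Scarb1 (0.54) and Abca1 (-1.55), the pump that loads cholesterol onto lipoproteins.

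Of 16 other genes of fatty acid synthesis, 4 were called higher and 6 lower than adult in Ki67-positive cells in each setting. The share higher is near the 25.1% and 23.9% of all genes called higher at PND8 and in repopulation, where 24.3% and 21% were called lower. Those with the largest changes were Hsd17b12 (0.99), Acsl5 (0.77), Lpin1 (-1.25) and Acss2 (-0.97) at PND8 and Acsl5 (1.00), Hsd17b12 (0.70), Acsl1 (-0.89) and Lpin1 (-0.76) in repopulation. Of 15 genes of fatty acid oxidation, 8 were called higher and 1 lower at PND8 and 6 and 0 in repopulation. They were led by Etfb (1.78) and Cpt1a (1.24) at PND8, where Ppard (-0.68) was lower, and by Etfb (1.26) and Acadl (0.87) in repopulation. Of 8 lipid droplet and uptake genes, 6 were called higher and 1 lower at PND8, led by Fabp5 (3.69) and Lpl (3.31) against Pnpla2 (-0.58), and 5 higher and 0 lower in repopulation, led by Cd36 (7.29) and Dgat2 (2.77). These lists were chosen with earlier results of these data known.

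At promoters, H3K27ac was called for more members, and for a larger share of all genes, in PND8 and repopulating cells than in adult cells. A member counted as marked when a deposited peak touched the start of its transcript with 1 kb on each side in both libraries of a group. This held for 19 of 31 members in adult cells (61.3%, against 68.7% of all genes). At PND8 it held for 26 in Ki67-negative (83.9% against 80.5%) and 27 in Ki67-positive cells (87.1% against 82.3%), near the shares of all genes. After cuprizone it held for 22 in Ki67-negative (71.0% against 73.4%) and 20 in Ki67-positive cells (64.5% against 76.8%). In repopulation Ki67-positive cells it held for 28 (90.3% against 79%). The share of all genes was also above the adult one in each of the other 5 groups, and no test was run on these counts. The number of peaks differed between replicates: counted in single libraries, 19 and 24 members were marked in adult, 22 and 25 in cuprizone Ki67-negative and 20 and 27 in cuprizone Ki67-positive cells, but 29 and 28 in repopulation cells.

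The share of the promoter window covered by peaks differed between groups and between replicates. Its median over the members was 37.6% and 48.8% in the adult libraries, where the median over all genes was 51.4% and 63.5%. In repopulation it was 87.2% and 79.2% against 74.8% and 69.1%. At PND8 Ki67-positive it was 69.1% and 80.4% against 69.5% and 78.2%, and at PND8 Ki67-negative 64.0% and 62.7% against 65.0% and 70.2%. Cuprizone replicates were far apart, with 44.7% and 71.1% in Ki67-positive cells against 62.1% and 74.4%, and 42.9% and 59.6% in Ki67-negative cells against 58.7% and 70.5%. The first cuprizone library of each kind thus lay below the higher adult library.

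Some promoters had a called H3K27ac peak in certain settings and none in others. A missing call does not show that the mark was absent. Adult replicate 1 had the shortest of the 12 H3K27ac lists, with 19572 peaks, and the lowest share of tags in peaks, 32.6%. At Sqle no peak was called in the adult and cuprizone Ki67-negative libraries or in cuprizone Ki67-positive replicate 1, and 31.8% of the window was covered in replicate 2. At PND8 the coverage was 63.3% and 59.1% in Ki67-negative and 65.4% and 80.4% in Ki67-positive libraries, and in repopulation 90.7% and 85.0%. The peak of repopulation replicate 1 lay at chr15:59314278-59316335 on mm10, over the start of Sqle at 59315092. At Fads2 peaks were called only in the PND8 Ki67-positive libraries (44.2% and 58.9% of the window) and the repopulation libraries (88.9% and 59.8%), 4 of the 12 libraries. The widest of these, in repopulation replicate 1, lay at chr19:10100396-10102280 over the start at 10101503. At Stard4 the adult libraries had no peak, those of PND8 42.6% to 80.4% and those of repopulation 87.2% and 79.2%. Cuprizone replicate 1 had none in either Ki67 group, and replicate 2 had 39.4% and 25.0%.

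Sc5d and Elovl6 had no peak in the adult libraries either. Sc5d was marked in 9 of 12 libraries and Elovl6 in 3, which were PND8 Ki67-positive replicate 2 and both of repopulation. By contrast, 19 members were marked in all 12 libraries, among them Fasn, Scd2, Insig1, Elovl5, Srebf2, Hmgcs1, Cyp51 and Idi1. At Hmgcs1 an H3K27ac peak covered the sterol regulatory element printed above in 9 of 12 libraries. None of the 3 ATAC-seq lists, which map open chromatin, had a peak over the element itself. All 3 did have a peak within 1 kb of the Hmgcs1 start.

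Acaca and Scd1 had no called H3K27ac peak in any library. The start of Acaca in the count table also had no H3K4me3 (a promoter mark), no ATAC-seq peak and no Rpb2 (a subunit of RNA polymerase II) peak, so these windows say nothing of other starts of that gene. Scd1 had H3K4me3 in both adult libraries, with no ATAC-seq peak in the 3 lists.

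**Figure D4:**
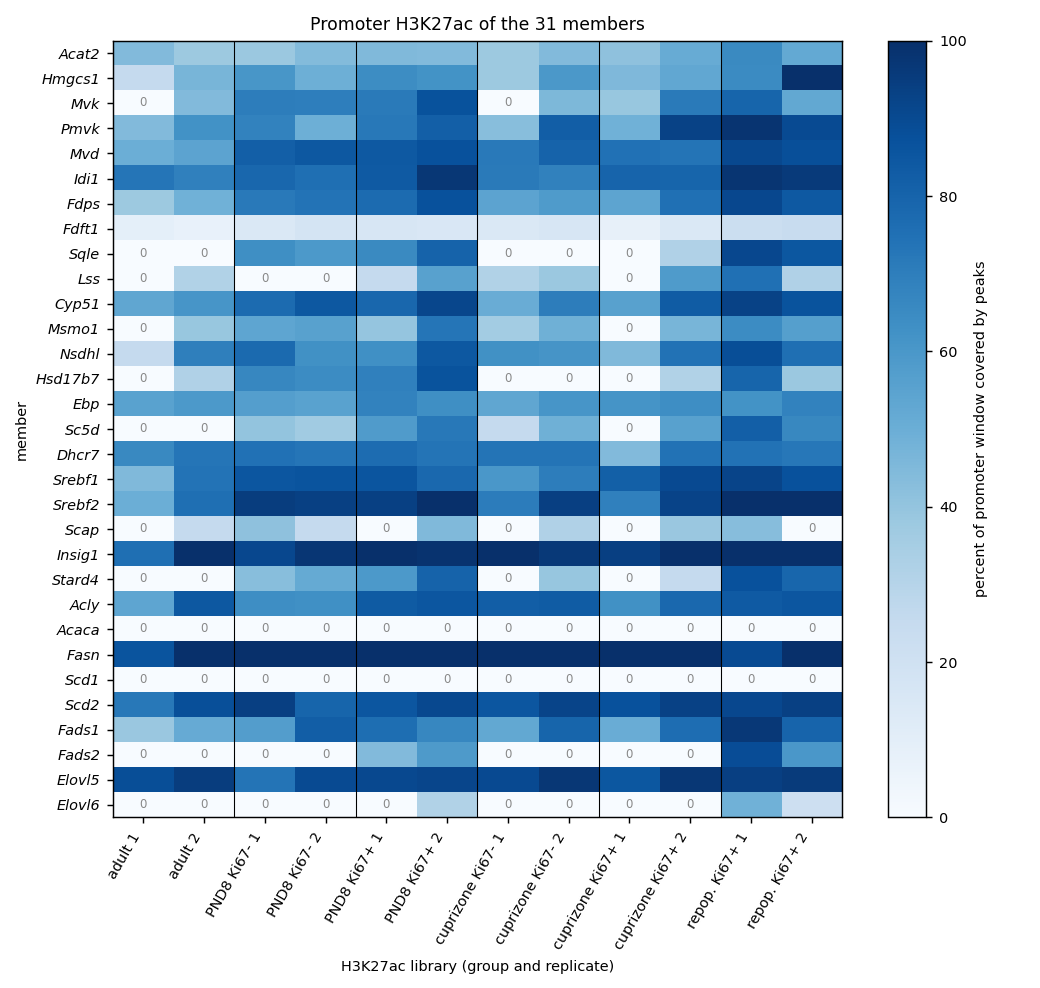
Share of the promoter window (start with 1 kb on each side) covered by deposited H3K27ac peaks, as colour from 0 to 100 percent, for the 31 members (rows) in 12 libraries (columns); a grey 0 marks no peak. Sqle, Stard4, Sc5d and Fads2 are empty in both adult libraries and covered in both repopulation libraries, and Acaca and Scd1 are empty throughout.

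Other marks were read at the same windows in untreated adult libraries (H3K4me3 at 75 days, Rpb2 at 60 and 65 days, ATAC-seq at 80 days), in PND8 Ki67-positive libraries (Rpb2 and ATAC-seq) and in 1 repopulation Ki67-positive ATAC-seq library (75 days, PLX5622 begun at day 55 for 17 days, 3 days of recovery). All are labelled wild-type, while the titles of the PND8 and repopulation ATAC-seq libraries name the Ki67rfp reporter. In adult cells H3K4me3 was called in both libraries for 30 of 31 members (against 89.8% of all genes), including Sqle, Stard4, Sc5d, Fads2 and Elovl6, which had no H3K27ac peak there. ATAC-seq peaks, with 1 library a group, were at 28 members in adult, PND8 Ki67-positive and repopulation Ki67-positive cells, against 88.3%, 89.2% and 90.8% of all genes. Rpb2 peaks were at 8 members in both adult libraries (against 47.5%) and at 27 in the single PND8 Ki67-positive library (against 80.4%). The Rpb2 lists differ in length, with 14550 and 10544 peaks in adult and 31602 at PND8, and the part of this in the count was not tested.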

How the data were processed

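The series holds 46 samples, of which 10 RNA libraries and 20 peak lists were used and 16 inputs had no values of their own. Members and gene lists were chosen with earlier results of these data known. The deposited counts were made by the authors with HOMER over exons of mm10 transcripts, 1 transcript a gene and at most 3 tags per position, per the file headers. That cap can hold down short, abundant transcripts. The TPM table deposited beside them names another transcript for 8 members. STAR 2.7.0f, Bowtie2 2.3.4.1, HOMER 4.11 and DESeq2 are named in the submitters' processing notes. Cells were isolated in butyrate and flavopiridol, and replicates are called independent, per the labels' protocols.

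Peaks were called by the authors per library, per the file headers, for H3K27ac at a peak size of 500 bp, a fold over input of 4 and a false discovery rate of 0.001. The deposited signal of a peak is its tag count scaled to 10000000 tags, per the file headers. The deposited peak score was used only to keep the upper 50% of each list as an alternative.

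Counts were tested with edgeR 4.0.16 in R 4.3.3 (TMM, filterByExpr, 1 quasi-likelihood fit of 10 libraries in 5 groups, 5 residual degrees of freedom). There were 9 comparisons, with Benjamini-Hochberg adjustment within each and a threshold of 0.05. CPM used TMM-scaled library sizes, and within-code differences used log2 CPM with a prior count of 2. The edgeR code was tested on simulated data. Alternatives were DESeq2 1.42.0, other scaling and filters, limma 3.58.1 on log2(TPM + 1) or log2(TPM + 0.1), the replicate number or the header code as a term and leaving out each library. All 31 members could be named. Values in every library were given for the 3 largest called rises and falls of a comparison and for Srebf1, Srebf2, Insig1, Hmgcs1, Sqle, Stard4, Fasn, Scd1 and Scd2. Other lists were given by counts and their 2 largest called changes each way, printed for Ki67-positive cells. Some genes of these lists are not reported here.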

Additional observations from a re-analysis of the deposited data

Results flagged for a closer look

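The difference from adult microglia was itself different between repopulation and PND8 for the members that passed the edgeR test of repopulation against PND8, in which the shared adult libraries cancel. In Ki67-positive cells the log2 differences of those higher in repopulation were Scd1 2.51, Idi1 1.21, Fads2 1.21, Fdps 0.91, Cyp51 0.79, Sqle 0.65, Stard4 0.64, Insig1 0.63, Acly 0.58 and Msmo1 0.49, and of those lower Scd2 -0.81, Fdft1 -0.58, Fasn -0.50 and Fads1 -0.38. In Ki67-negative cells they were Scd1 2.83, Fads2 1.44, Idi1 1.29, Sqle 1.04, Fdps 0.91, Lss 0.70, Cyp51 0.68, Acly 0.66, Srebf2 0.53 and Insig1 0.49 for those higher and Fdft1 -0.77, Scd2 -0.68, Fads1 -0.44 and Srebf1 -0.37 for those lower. The Scd1 differences are in part fixed by the filter on low counts. With the header code as a term of the edgeR fit, Idi1, Fdps, Sqle, Msmo1 and Stard4 were no longer called in Ki67-positive cells, nor Idi1 and Lss in Ki67-negative cells. Leaving out 1 library took the 14 calls to 7 without PND8 Ki67-positive replicate 1 and to 8 without repopulation Ki67-positive replicate 2 in Ki67-positive cells. In Ki67-negative cells the 14 calls became 9 without PND8 Ki67-negative replicate 2. Groups of 2 libraries are too small for a test of single outlying samples.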

How the results depend on the processing

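Counts of called members against adult (21, 23, 24 and 23 in the order of the report) stayed within 1.5 times under every alternative run, and no member call changed direction, although Fads1 was called lower than adult in repopulation Ki67-positive cells with library sizes only (-0.20) and with limma (-0.24). Leaving out each library gave 17 to 24 for PND8 Ki67-positive, 20 to 24 for PND8 Ki67-negative, 20 to 24 for repopulation Ki67-positive and 20 to 25 for repopulation Ki67-negative cells. It gave 0 to 1 and 0 to 0 for Ki67 at PND8 and in repopulation, 0 to 0 for the interaction, and 7 to 15 and 9 to 15 for repopulation against PND8 in Ki67-positive and Ki67-negative cells. For Ki67 at PND8 the count of 0 became 2 without a filter on low counts, 1 with the replicate block and 5 once the header code was a term, which made it 2 for Ki67 in repopulation. With that term 15.2% and 9.92% of all genes were called at PND8 and in repopulation. Same-numbered libraries correlated in their deviations at 0.338 within PND8 and 0.263 within repopulation and at -0.008 to 0.097 in all other pairs of groups, and the labels do not state a pairing. With the replicate block the counts were 24, 24, 24 and 25 against adult and 16 and 18 for repopulation against PND8. The cause of these changes was not tested. Shares of all genes under the replicate block and without the filter on low counts are not given here. The member counts under those 2 settings are therefore not read as a result about the members.

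Members with promoter H3K27ac in both libraries fell from 19 to 9 in adult and from 20 to 13 in cuprizone Ki67-positive cells when at least 50% of the window had to be covered. With the upper 50% of each list by score they were 4 in adult, 8 in PND8 Ki67-negative, 7 in cuprizone Ki67-negative, 9 in PND8 Ki67-positive, 8 in cuprizone Ki67-positive and 12 in repopulation cells. Single libraries gave 19 to 24, 26 to 26, 22 to 25, 27 to 29, 20 to 27 and 28 to 29 in the same order of groups. Depth limited Scd1 and Idi1 in adult cells, and 5 residual degrees of freedom limit all tests.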
